A study of Solanum lycopersicum with 14 samples.

Results

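Ethylene receptors are the membrane proteins through which plant cells perceive the gaseous ripening hormone ethylene, and tomato encodes them in the small gene family described here. The 7 members are ETR1 (Solyc12g011330), ETR2 (Solyc07g056580), NR (Solyc09g075440), ETR4 (Solyc06g053710), ETR5 (Solyc11g006180), ETR6 (Solyc09g089610) and ETR7 (Solyc05g055070). They were taken by identifier from the 34725 genes of each deposited table, and all 7 were present and tested by the authors in all 4 tables. Chromosome numbers are those in the identifiers, and the genome build is not given in the sources used here.

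Transcripts of pericarp, the flesh of the fruit wall, were measured by RNA sequencing in 14 libraries, 2 per group. The groups were the yellow-fruited mutant n3122, in the cultivar background M82, at 35, 47, 54 and 60 DPA, and the red-fruited wild type M82 at 35, 47 and 54 DPA. DPA is the fruit age as labelled, in this field days post anthesis. All plants were grown in a greenhouse, the labels name no mutated gene and no treatment, and no label says whether a group's libraries came from different plants. The authors' p-values may therefore measure technical spread alone. Each deposited table sets 1 n3122 group against 1 M82 group, at 35, 47 and 54 DPA and, across ages, n3122 of 60 DPA against M82 of 47 DPA. That last one is called the cross-age comparison. The question asked here of red and yellow fruit is how the genes of ethylene perception differ.

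Without ethylene the receptors hold the kinase CTR1 active, and CTR1 in turn blocks EIN2, the membrane protein that passes the signal to the EIL transcription factors. Binding of ethylene switches the receptors off, so they act as brakes on the response, and a tissue with more free receptor needs more ethylene to respond. In tomato, ETR1, ETR2 and NR form subfamily I, whose members keep a histidine kinase, and NR lacks the receiver domain of its relatives. ETR4, ETR5, ETR6 and ETR7 form subfamily II, with a diverged kinase. NR is the gene of the Never-ripe mutant, and NR, ETR4 and ETR6 are known as receptor genes that ripening fruit express strongly.

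All levels are FPKM, fragments scaled to transcript length and library size, as the authors deposited them. Each is 1 value for both libraries of a group, so no level carries an SD and no order of close levels can be tested. A receptor was called where the authors' deposited table gave a q-value of 0.05 or less. Fold changes are log2((n3122 + 1) / (M82 + 1)) of FPKM, a scale on which changes of weakly expressed genes come out too small. The numbers of reads were not in the tables, so the depth behind each value is unknown. Fewer cells of a type and less RNA per cell cannot be told apart in pericarp as a whole. The genes RIN, PG2A, PSY1 and E8 mark pericarp ripening. All 4 were called lower in n3122 at 47 and 54 DPA and in the cross-age comparison, and none at 35 DPA. At 47 DPA RIN had 7.23 FPKM in n3122 and 733 FPKM in M82. Genotype and ripening stage therefore cannot be told apart in the receptor differences of those 3 comparisons. The cuticle genes CD1, CD2 and CER6, which mark the fruit epidermis, ran from 5.67 to 447 FPKM in n3122 and from 0.448 to 289 FPKM in M82, with medians of their log2 fold changes of 0.54, 0.27, 0.74 and 0.87 over the 4 comparisons. CD1 was called higher in n3122 in all comparisons but that at 35 DPA, and CD2 at 54 DPA and in the cross-age comparison. CER6 was called in none, at log2 fold changes of 0.54, -0.01, -0.29 and 0.65. CD1 also changed with age from 35 to 47 DPA. It went from 289 to 0.484 FPKM in M82 and from 447 to 42.0 FPKM in n3122. Whether the share of epidermis moved the receptor values was not tested.

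The family split by the size of the difference between genotypes. NR and ETR4 were several times lower in n3122 from 47 DPA on, ETR6 was lower at every age, ETR7 was lower from 47 DPA on and ETR5 at 54 DPA alone. ETR1 and ETR2 were called in none of the 4 comparisons. No receptor was called higher in n3122.

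**Figure D1:**
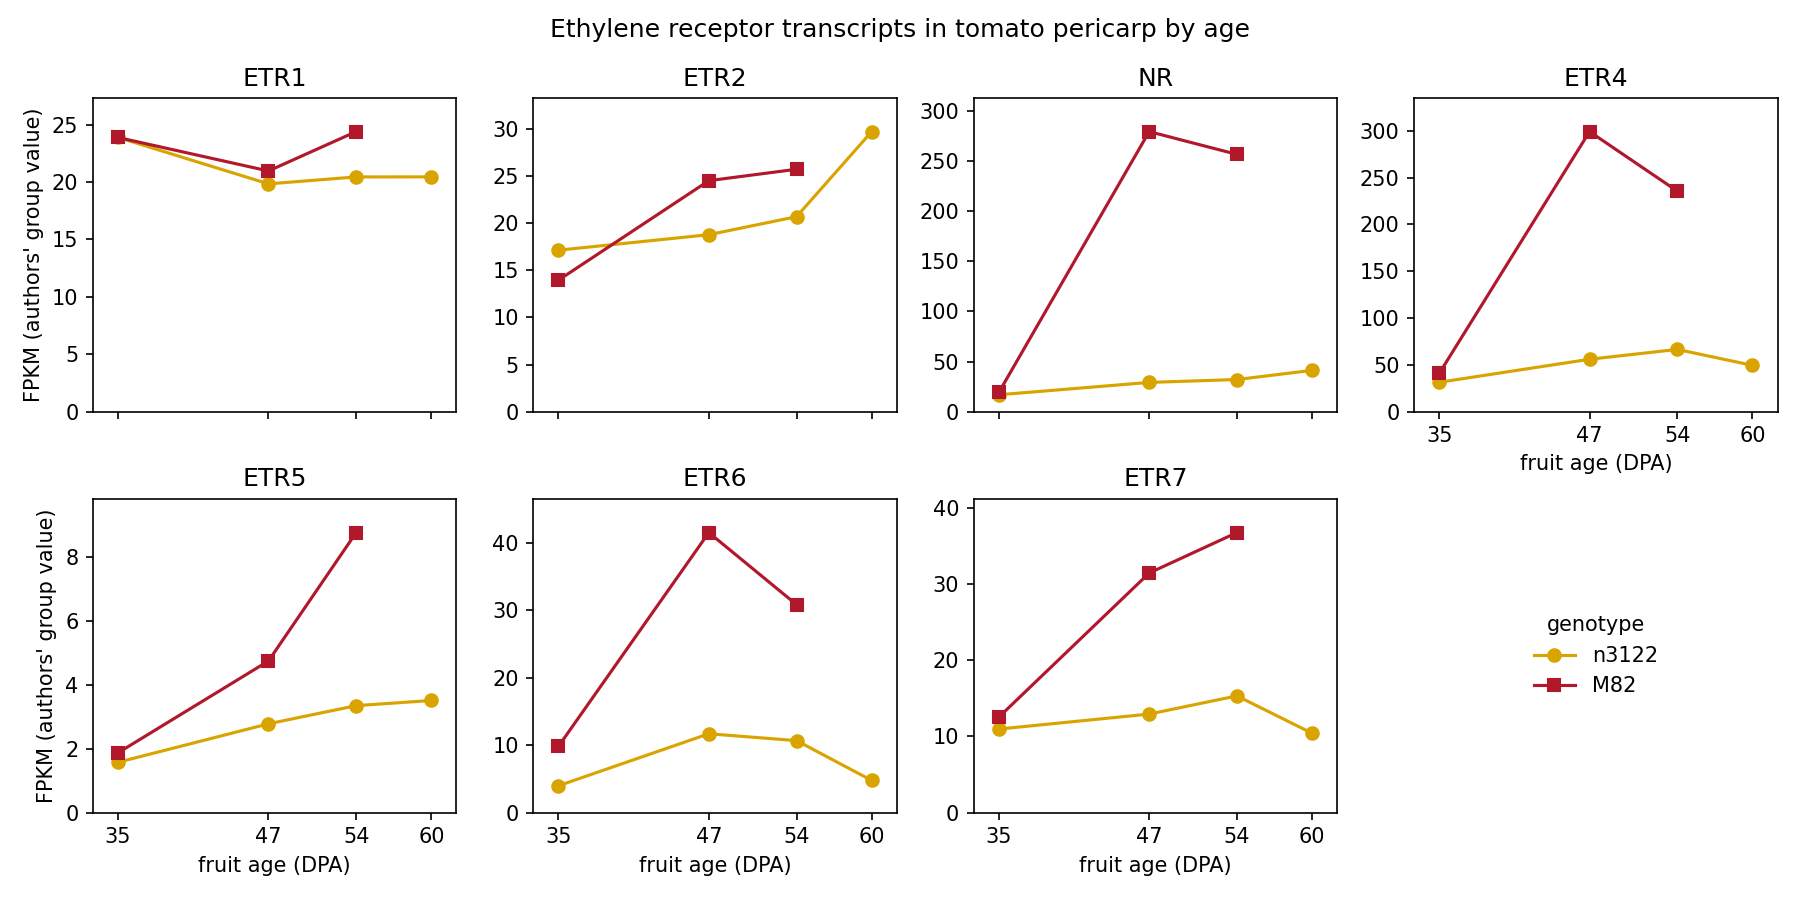
FPKM of each receptor (y axis, starting at 0, with its own scale in each panel) against fruit age in DPA (x axis). Each point is the authors' single value for the 2 libraries of a group, n3122 as circles and M82 as squares, with no error available. NR and ETR4 reach 279.7 and 299 FPKM in M82 at 47 DPA, while n3122 stays at or below 41.2 FPKM for NR and 66.4 FPKM for ETR4.

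NR, the receptor gene best known from ripening fruit, showed the widest range over the groups. In n3122 it stood at 16.8, 29.1, 32.0 and 41.2 FPKM at 35, 47, 54 and 60 DPA, against 19.1, 279.7 and 257 FPKM in M82 at 35, 47 and 54 DPA. At 35 DPA the genotypes were close, and at later ages every n3122 value lay far below every M82 value. The log2 fold change was -0.18 at 35 DPA, and no difference was called (q = 0.987 in the authors' deposited table). It was -3.22 at 47 DPA and -2.97 at 54 DPA, and the authors' deposited tables gave q = 0.000521 and 0.000377, the smallest of each table. In the cross-age comparison, with 41.2 FPKM in n3122 against 269 FPKM in M82, it was -2.68 (q = 0.000943, again the smallest of the authors' deposited table). The NR fold change lay above that of 0.997%, 1.07% and 0.813% of all genes tested in these 3 comparisons, in the order given.

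ETR4, a subfamily II receptor, had the highest level of the family in 6 of the 7 groups, M82 at 54 DPA being the exception. It stood at 31.3, 55.9, 66.4 and 49.4 FPKM in n3122 at 35, 47, 54 and 60 DPA, against 40.8, 299 and 236 FPKM in M82 at 35, 47 and 54 DPA. In n3122 it was highest at 54 DPA and lower again at 60 DPA, where NR was at its highest. At 35 DPA its log2 fold change of -0.37 was not called (unadjusted p = 0.0493 and q = 0.460, from the authors' deposited table). The log2 fold change was -2.40 at 47 DPA, -1.81 at 54 DPA and -2.52 in the cross-age comparison, each with the smallest q-value of the authors' deposited table.

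ETR6, also of subfamily II, was the one receptor called at 35 DPA. It had 3.98 FPKM in n3122 against 9.83 FPKM in M82 at 35 DPA, a log2 fold change of -1.12 (q = 0.00325, the authors' deposited table). Only 0.922% of tested genes had a lower fold change at that age. At 47 DPA it had 11.7 FPKM in n3122 and 41.5 in M82, and at 54 DPA 10.7 and 30.9 FPKM, log2 fold changes of -1.74 and -1.45. The authors' deposited tables gave these q = 0.000521 and 0.000377. In n3122 at 60 DPA it was back at 4.77 FPKM, against 39.9 FPKM in M82 at 47 DPA. That cross-age fold change of -2.83 was the largest of the 7 receptors (q = 0.000943, the authors' deposited table). The level of ETR6 in n3122 at 60 DPA was thus close to that of n3122 at 35 DPA.

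ETR7 had 11.0, 12.9, 15.3 and 10.4 FPKM in n3122 at 35, 47, 54 and 60 DPA, against 12.5, 31.4 and 36.7 FPKM in M82 at 35, 47 and 54 DPA. Its n3122 values stayed within a narrow band, and the M82 values from 47 DPA on lay above all of them. The log2 fold change was -0.18 at 35 DPA (q = 0.998, not called), -1.22 at 47 DPA, -1.21 at 54 DPA and -1.45 in the cross-age comparison, the last 3 with the smallest q-value of the authors' deposited tables.

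ETR5 was the least abundant receptor in all 7 groups. It had 1.58, 2.78, 3.35 and 3.51 FPKM in n3122 at 35, 47, 54 and 60 DPA, and 1.88, 4.75 and 8.78 FPKM in M82 at 35, 47 and 54 DPA. In both genotypes the value was higher at each later age. The difference between genotypes was called at 54 DPA, at a log2 fold change of -1.17 (q = 0.000377, the authors' deposited table). At 47 DPA the log2 fold change of -0.60 was not called (unadjusted p = 0.0369 and q = 0.119, from the authors' deposited table). At 35 DPA and in the cross-age comparison the log2 fold changes of -0.16 and -0.30 had q = 0.998 and 0.577 there. Whether the differences at 47 and 54 DPA themselves differ was not tested.

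ETR1 and ETR2, the subfamily I members beside NR, gave no call. ETR1 ran from 19.8 to 23.9 FPKM in n3122 and from 21.0 to 24.4 FPKM in M82, and its log2 fold changes were 0.00, -0.08, -0.24 and 0.02 over the 4 comparisons (q from 0.425 to 0.999, the authors' deposited tables). Its highest value was 1.23 times its lowest, and only 2.37% of genes with at least 1 FPKM in 4 or more groups had a narrower range on the log2 scale. ETR2 had 17.2, 18.8, 20.7 and 29.8 FPKM in n3122 at 35, 47, 54 and 60 DPA, and 14.0, 24.5 and 25.8 FPKM in M82 at 35, 47 and 54 DPA. Its highest value in the series was that of n3122 at 60 DPA. From 47 to 54 DPA in M82 its log2 change was 0.02 relative to the median gene and -0.02 with all groups on one scale by median of ratios, so no direction is given for that step. The log2 fold changes of ETR2 were 0.28, -0.37, -0.30 and 0.32, for which the authors' deposited tables gave q = 0.771, 0.389, 0.315 and 0.475. With no error on the levels, a q-value above the threshold does not show that the genotypes had equal levels.

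**Figure D2:**
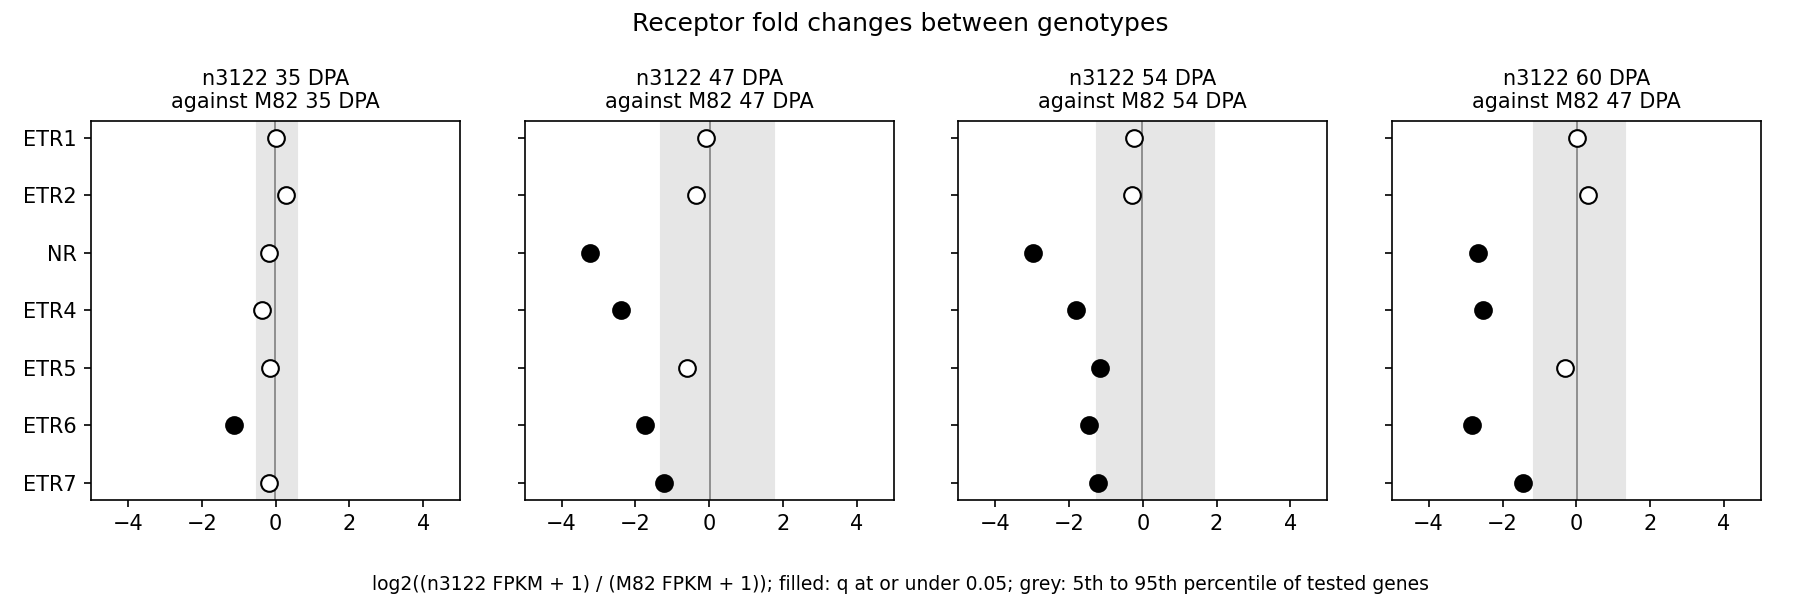
Log2 fold change of n3122 over M82 on the scale of FPKM + 1 (x axis) for the 7 receptors (rows) in the 4 comparisons (panels). Filled points were called by the authors' deposited q-values, the grey band runs from the 5th to the 95th percentile of all tested genes and the line marks their median. ETR6 alone is filled at 35 DPA, and NR, ETR4, ETR6 and ETR7 are filled in the other 3 panels, with ETR5 added at 54 DPA.

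Over the family, 1 of 7 receptors was called lower in n3122 at 35 DPA. Of the 18541 tested genes there, 1.33% were called lower, 1.91% higher and 3.24% in either direction. At 47 DPA 4 of 7 were called lower, beside 9.81% of the 18751 tested genes, with 13.7% higher and 23.5% in either direction. At 54 DPA 5 of 7 were called lower, beside 11.5% of the 18796 tested genes, with 18.1% higher and 29.7% in either direction. In the cross-age comparison 4 of 7 were called lower, beside 7.07% of the 18823 tested genes, with 7.93% higher and 15% in either direction. The median log2 fold change of the 7 receptors was -0.18, -1.22, -1.21 and -1.45 in the 4 comparisons, beside medians of -0.01, 0.01, -0.02 and 0.02 over all genes tested. The comparison at 47 DPA and the cross-age one share the M82 libraries of 47 DPA, so they are not independent of each other. How fragments that match more than 1 receptor gene were assigned is not given in the sources used here.

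Summed over the family, receptor transcripts differed little at 35 DPA and several-fold later. The summed level of the 7 receptors was 106 FPKM in n3122 and 122 FPKM in M82 at 35 DPA. At 47 DPA it was 151 FPKM in n3122 against 702 FPKM in M82, and at 54 DPA 169 FPKM against 619 FPKM, so the n3122 sum was 0.215 and 0.273 of the M82 sum. At 60 DPA n3122 had 159 FPKM, 0.236 of the 675 FPKM in M82 at 47 DPA in the same table. NR and ETR4 together made up 89.6% of the gap at 47 DPA, 87.6% at 54 DPA and 90.4% in the cross-age comparison. The other 5 receptors summed to 66.0 FPKM in n3122 and 123 FPKM in M82 at 47 DPA, and to 70.5 and 126 FPKM at 54 DPA.

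The make-up of the receptor pool differed as well. NR and ETR4 together took 45.5%, 56.3%, 58.3% and 56.8% of the summed FPKM in n3122 at 35, 47, 54 and 60 DPA, against 49.1%, 82.5% and 79.6% in M82 at 35, 47 and 54 DPA. ETR1 held 13.1% of the pool in n3122 at 47 DPA and 2.98% in M82 at 47 DPA, at nearly equal FPKM. The ratio of NR to ETR4 was 0.537, 0.521, 0.482 and 0.833 in n3122 at the 4 ages, and 0.469, 0.935 and 1.09 in M82 at its 3 ages. Subfamily I as a whole took between 43.3% and 57.3% of the pool in n3122 and between 46.3% and 49.6% in M82. These shares do not depend on how a table was scaled, since all 7 levels of a group come from one table.

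**Figure D3:**
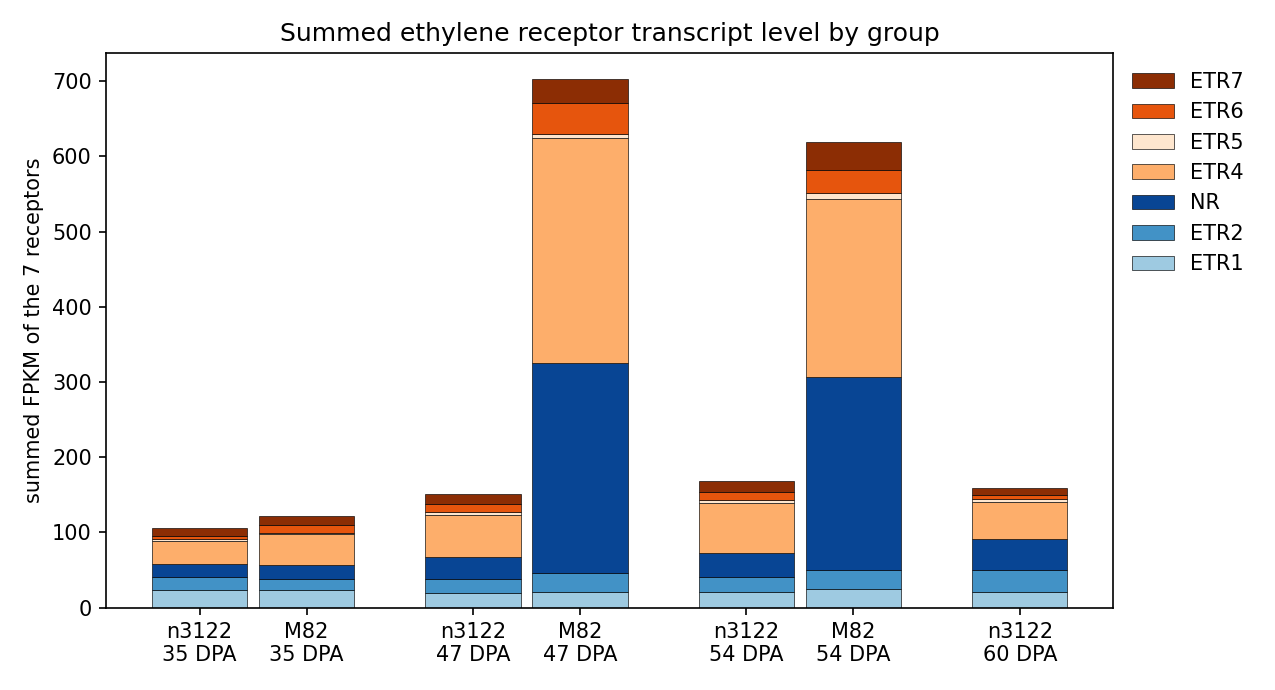
Summed FPKM of the 7 receptors (y axis, starting at 0) in each group (x axis), with each receptor as a coloured part of the bar, subfamily I in blues and subfamily II in oranges. Each bar is built from the authors' single values per group, with no error available. The bars of M82 at 47 and 54 DPA reach 702 and 619 FPKM, and no n3122 bar exceeds 169 FPKM.

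The order of the levels was alike at 35 DPA and differed later. At 35 DPA it ran ETR4, ETR1, ETR2, NR, ETR7, ETR6 and ETR5 in n3122, and ETR4, ETR1, NR, ETR2, ETR7, ETR6 and ETR5 in M82. ETR2 and NR, with 17.2 and 16.8 FPKM in n3122, were close to each other. At 47 DPA the order in n3122 was ETR4, NR, ETR1, ETR2, ETR7, ETR6 and ETR5, whereas in M82 ETR6 and ETR7 stood above ETR2 and ETR1. In n3122 at 54 DPA ETR2 and ETR1 had 20.7 and 20.4 FPKM, again close to each other. NR and ETR4 lay above 96.5% and 96.9% of genes with at least 1 FPKM in M82 at 47 DPA, and in n3122 at that age above 67.9% and 83.3%.

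Changes with age were taken between tables, so they carry no test and are given relative to the median gene. That median lay between -0.13 and 0.06 on the log2 scale for the steps within a genotype, and a change counted where it reached 1. In n3122 from 35 to 47 DPA, ETR6 was the one receptor past that size, at 1.47, beside 8.58% of genes higher and 5.51% lower by that much. ETR4, NR and ETR5 were at 0.94, 0.88 and 0.68, ETR7 and ETR2 at 0.35 and 0.25, and ETR1 at -0.13. In M82 over the same ages 5 of 7 receptors passed it, all higher, beside 11.6% of genes higher and 14.9% lower. NR was higher by 3.88, ETR4 by 2.92, ETR6 by 2.05, ETR7 by 1.34 and ETR5 by 1.07, with ETR2 at 0.84 and ETR1 at -0.11. Between 47 and 54 DPA no receptor passed it in either genotype, beside 1.1% higher and 1.16% lower genes in n3122 and 3.42% and 5.13% in M82. ETR5 came nearest, at 0.72 in M82, while NR, ETR4 and ETR6 there stood at -0.17, -0.39 and -0.46. From 35 to 54 DPA in M82 the same number, 5 of 7, were past 1 (NR 3.67, ETR4 2.49, ETR5 1.75, ETR6 1.54 and ETR7 1.47), beside 11.9% of genes higher and 18.5% lower.

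From 54 to 60 DPA in n3122 the receptors and the ripening genes took different values. NR stood at 0.43 and ETR2 at 0.58, whereas ETR4, ETR7 and ETR6 stood at -0.34, -0.44 and -0.94, and ETR5 and ETR1 at 0.13 and 0.08. No receptor reached 1 in either direction, beside 3.59% higher and 6.39% lower genes. Over the same step RIN, a MADS-box regulator of ripening, had 364 FPKM at 60 DPA and 28.3 FPKM at 54 DPA (log2 change 3.71). PG2A, the fruit polygalacturonase, stood at 4.81, PSY1, the fruit phytoene synthase, at 2.39, and E8, an ethylene-responsive gene, at 1.71. All 4 ripening genes were thus past 1 where 0 of 7 receptors were. ETR6 was at -1.02 without setting the median to 0. Over the whole span in n3122, from 35 to 60 DPA, NR alone passed 1, at 1.35, beside 8.3% of genes higher and 10.2% lower, and ETR6 stood at 0.32. Against M82 at 54 DPA, its oldest fruit, n3122 at 60 DPA had 5 of 7 receptors lower by 1 or more, beside 6.62% of genes: NR at -2.50, ETR6 at -2.35, ETR4 at -2.12, ETR7 at -1.61 and ETR5 at -1.003. With all groups on one scale by median of ratios ETR5 was at -0.998 and 4 of 7 passed. Higher genes were 11.4% there. Against M82 at 35 DPA, n3122 at 60 DPA had 2 of 7 receptors higher by 1 or more, NR at 1.18 and ETR2 at 1.16, beside 8.86% of genes higher and 10.3% lower. Those values come from different tables and were not tested.

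**Figure D4:**
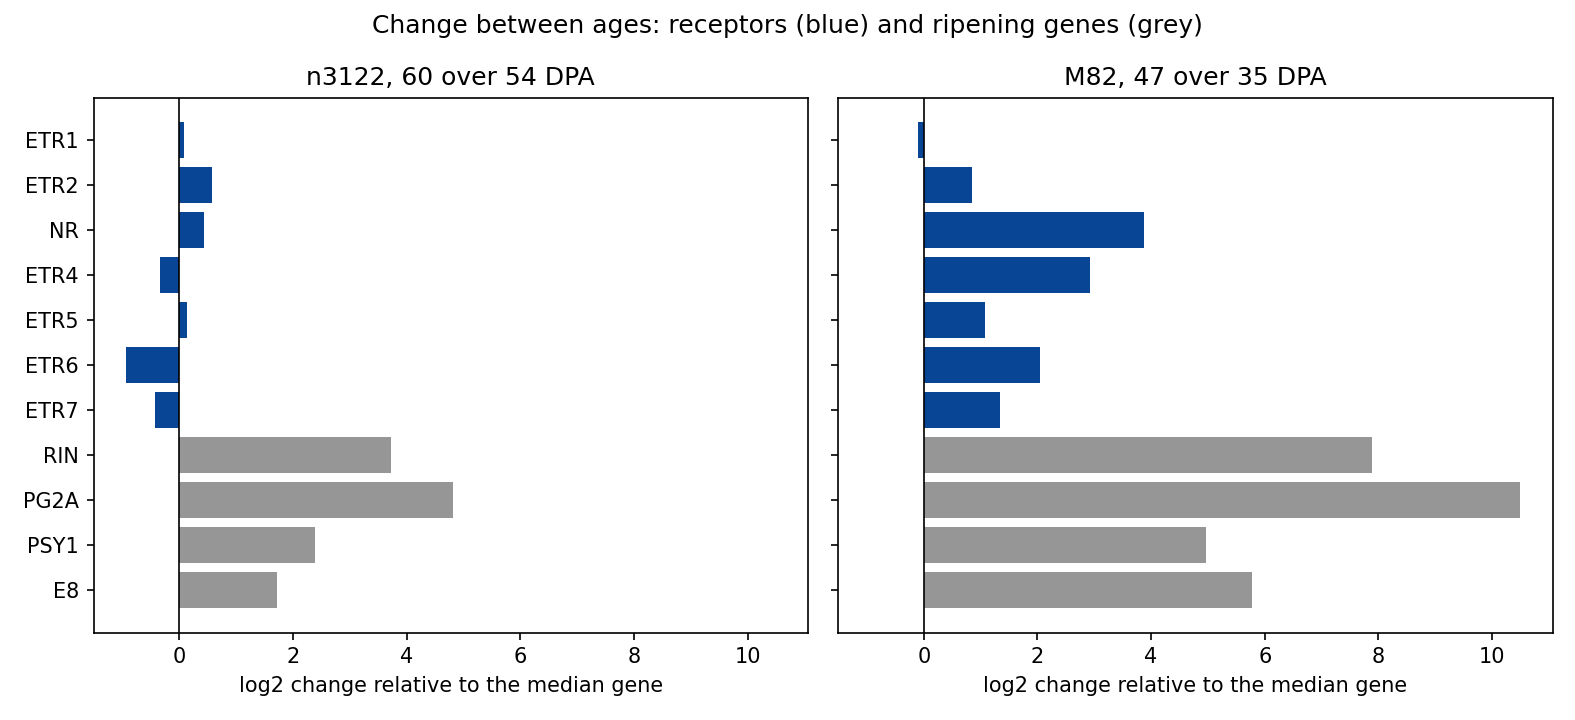
Log2 change between ages relative to the median gene (x axis) for the 7 receptors in blue and 4 ripening genes in grey (rows), in n3122 from 54 to 60 DPA (left) and in M82 from 35 to 47 DPA (right). Each bar is a difference of 2 group values from separate tables, with no error available. In n3122 the ripening genes lie between 1.71 and 4.81 and the receptors between -0.94 and 0.58, and in M82 NR and ETR4 reach 3.88 and 2.92.

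NR, ETR4, ETR5, ETR6 and ETR7 differed in how closely they followed one another over the 7 groups. On log2(FPKM + 1), Pearson's r was 0.98 between NR and ETR4, 0.97 between ETR4 and ETR7, and 0.94 between ETR4 and ETR6, NR and ETR7, and ETR6 and ETR7. It was 0.88 between NR and ETR6. For ETR5 it was 0.90 with NR, 0.87 with ETR4, 0.85 with ETR7 and 0.75 with ETR6. ETR2 lay between 0.28 and 0.73 to these 5 receptors. ETR1 followed none of them, with r between -0.35 and 0.22 to the other 6 receptors. These correlations describe 7 group values that share libraries, ages and tables, and the M82 values of 47 and 54 DPA weigh heavily in them.

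Likeness to other genes was measured as the root mean square distance over the 7 groups on log2(FPKM + 1) after each gene's own mean was subtracted, among 17834 genes with at least 1 FPKM in 4 or more groups. For NR the nearest were Solyc02g021680 and Solyc11g066930, at distances of 0.25 and 0.26. Solyc02g021680 had 2.19, 4.88, 7.58 and 8.86 FPKM in n3122 and 2.04, 46.4 and 45.8 FPKM in M82. For ETR4 the nearest were Solyc05g007770 and Solyc08g078050, at 0.098 and 0.13. For ETR6 they were Solyc08g021820 and EBF1 (Solyc12g009560), an F-box gene whose product removes EIL proteins, at 0.30 and 0.34. EBF1 had 17.6, 31.3, 37.5 and 21.1 FPKM in n3122 at 35, 47, 54 and 60 DPA, against 37.0, 159 and 190 FPKM in M82 at 35, 47 and 54 DPA. ETR7 lay nearest to Solyc07g018300 and Solyc05g010450 (0.10 and 0.13), ETR5 to Solyc02g084300 and Solyc11g040120 (0.12 each) and ETR2 to Solyc05g010810 and Solyc09g014450 (0.051 and 0.064). ETR1 varied too little to be matched. By the authors' deposited tables, 10 of these 12 genes had the same calls as their receptor in all 4 comparisons. The 2 nearest to ETR2 matched by being called in none, as was ETR2. Of all tested genes, 3.24%, 23.5%, 29.7% and 15% were called in either direction in the 4 comparisons. The exceptions were Solyc08g078050, called lower at 54 DPA alone (q = 0.0691 at 47 DPA and 0.142 in the cross-age comparison), and Solyc02g084300, called in none (q = 0.183 at 54 DPA). The genes were chosen for likeness over the same group values that enter these calls, so the match is a description.

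The rest of the pathway gave the setting. EIN2 (Solyc09g007870), on which the receptors act through CTR1, was at 3.75, 2.50, 2.91 and 1.95 FPKM in n3122 at 35, 47, 54 and 60 DPA, against 48.9, 35.0 and 40.8 FPKM in M82 at 35, 47 and 54 DPA. All 4 comparisons called it lower. Its log2 fold change on the scale of FPKM + 1 ran from -3.36 to -3.55 over the comparisons. Those of NR ran from -0.18 to -3.22. That scale makes fold changes of a gene as low as EIN2 in n3122 too small, and another pseudocount was not tried for EIN2. Of 8 other signalling genes listed, EIN2 among them, 2 were called lower at 35 DPA. The calls were 3 lower and 1 higher at both 47 and 54 DPA, and 4 lower and 1 higher in the cross-age comparison. The one higher was EIL2 each time, at 41.5 FPKM in n3122 and 22.9 FPKM in M82 at 47 DPA. Among all tested genes, 1.33%, 9.81%, 11.5% and 7.07% were called lower in the 4 comparisons, and 1.91%, 13.7%, 18.1% and 7.93% higher. CTR1 (Solyc10g083610), the partner kinase, was lower at 47 DPA with 17.8 FPKM in n3122 and 46.1 FPKM in M82 (log2 fold change -1.33) and also in the other comparisons but that at 35 DPA. Of 11 genes of ethylene synthesis, 10, 10, 10 and 9 were tested in the 4 comparisons. Of these, 2 were called lower at 35 DPA, and 5 lower and 2 higher at 47 DPA. At 54 DPA 3 were called lower and 6 higher, and in the cross-age comparison 4 lower and 1 higher. At 54 DPA the synthesis genes thus had more calls upward than downward, as did all tested genes (18.1% higher and 11.5% lower). The receptors had 5 downward and 0 upward there.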

How the data were processed

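Pericarp RNA of 14 libraries in 7 groups of 2 was analysed from 4 deposited tables, each comparing 1 n3122 group with 1 M82 group over 34725 genes. The submitters' processing notes list TopHat2 (version 2.0), Cufflinks and CASAVA; the genome build and annotation were not given in the sources used here. Per the file headers, the authors gave 1 FPKM value per gene and group, not per library, beside q-values and p-values. The q-values deposited matched a Benjamini-Hochberg adjustment over the tested genes to within 5.26e-07. The smallest p-value was 5e-05, so genes there cannot be ranked. The authors' FPKM of M82 at 47 DPA stands in 2 tables at a ratio of 0.960 (SD 0.00118 over 17236 genes), so tables were scaled separately. Version suffixes were removed from 51 identifiers.

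No test of single genes was run, since no replicate values were at hand; calls are those of the authors. A pseudocount of 1 FPKM was used for fold changes. Changes between ages were set relative to the median gene (1 FPKM or more in both groups), because that median moved by more than 0.1 between some tables; this was chosen after seeing the data. Members and lists were chosen with earlier results of these data known. All 7 receptors lay in the same place (within 5% of the gene order) as a gene of that name in the RefSeq table of assembly SLM_r2.1, NR by its listed synonym ETR3, and 2 of 21 pathway genes, EBF2 and GR, did not and were dropped. Named genes are the 7 receptors, EIN2, the 2 genes nearest to each receptor with a log2 range of 1 or more, and pathway genes called against most of their list; CTR1, and the marker genes, were named after their values were seen. No sequences were used here. Python 3.11.15, pandas 2.3.3, numpy 2.4.6 and matplotlib 3.10.9 were used; the adjustment, scaling and nearest-gene steps were tested on simulated data.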

Additional observations from a re-analysis of the deposited data

How the results depend on the processing

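No paired analysis was possible because the tables carry 1 value per group and no replicate, and for the same reason no replicate could be left out. The counts of receptors called stayed at 1, 4, 5 and 4 at a q-value of 0.01, when an absolute log2 fold change of at least 1 was also asked for, and with the adjustment over genes of at least 1 FPKM in either group. All 84 fold changes recomputed with a pseudocount of 0.1, with none, or with the median of all genes set to 0 kept their direction. Of the synthesis genes at 35 DPA, 1 was called at a q-value of 0.01 in place of 2. The groups were also put on one scale by median of ratios over 15814 genes. The summed receptor FPKM was then 103, 159, 169 and 167 in n3122 at 35, 47, 54 and 60 DPA. In M82 at 35, 47 and 54 DPA it was 118, 709.8 and 589.9 on that scale. As deposited in the cross-age comparison, without that scaling, the sum for M82 at 47 DPA was 675, against 702 in the comparison at 47 DPA. From 54 to 60 DPA in n3122, 1 receptor, ETR6, passed a log2 change of 1 with a pseudocount of 0.1 (-1.06) or with the median not set to 0 (-1.02), where otherwise 0 did. From 35 to 60 DPA in n3122, 2 receptors passed with a pseudocount of 0.1, NR and ETR5, in place of 1. For n3122 at 60 DPA over M82 at 54 DPA, 4 receptors passed on one scale in place of 5, ETR5 being at -0.998. Of 203 recomputed changes between ages, 196 kept their direction and their side of 1. The direction turned for ETR1 from 47 to 54 DPA (0.04) and ETR7 from 35 to 60 DPA (-0.07) in n3122 with the median not set to 0, and for ETR2 from 47 to 54 DPA in M82 on one scale (-0.02). With genes of at least 5 FPKM, 10 of the 12 nearest genes were the same. Sequencing depth is unknown, which limits most the low levels of ETR5 and ETR6.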
